A study of Rattus norvegicus with 18 samples.

Results

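Gene expression at 48 h was set against gene expression at 24 h in neonatal rat cardiomyocytes kept in unconditioned medium, the arm of the study without stem cell factors. The members were chosen by their labels alone, and 6 of the 18 samples of the series qualified, 3 at 48 h and 3 at 24 h. Of these, 2 at each time were measured on a larger array design, which gave all tests, and 1 at each time on a smaller design, which was used for direction. The title of the series asks whether factors secreted by stem cells induce proliferation, and the arm described here covers the second day of culture in medium without those factors.

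The unconditioned samples at 48 h and at 24 h shared their treatment up to the time of extraction. Cells came from 24 ventricles of day 1 rats, were purified on Percoll gradients, and seeded at 250000 per dish. After 24 h in a cardiac medium, that medium was diluted to 50% with unconditioned hESC medium, and FBS was brought to 5% and HS to 10%. In the conditioned groups (48 h and 24 h, 3 samples each) the hESC medium had been conditioned by stem cells, and the 6 time zero samples were extracted before the dilution. Nothing in the labels says that samples came from separate cell preparations. The p-values therefore reflect just the spread among these samples, and that spread may be technical.

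Cardiomyocytes of newborn rodents are near the end of their ability to divide. The cells replicate DNA, enter mitosis under the kinase Cdk1 and its partner cyclin B, and often stop before the daughter cells separate. A Percoll gradient enriches cardiomyocytes but leaves some fibroblasts, endothelial cells and smooth muscle cells, which keep dividing in serum, and an array of whole-dish RNA adds all of them together. A larger share of a cell type and more RNA per cell of that type cannot be told apart in such data.

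The cultures carried the markers of their label. On each of the 4 unconditioned arrays of the larger design, cardiac troponin T (Tnnt2), cardiac troponin I (Tnni3), the Z-disc actinin Actn2 and the natriuretic peptide Nppa lay between 15052 and 36743 in intensity after scaling, where the median of all probes was 96.8. Values below are intensities scaled so that every array has this median. Changes are log2 differences, 48 h minus 24 h, given with the SE of the limma fit after subtraction of the median over all 23694 probes tested, which was -0.18. The p-values test the change before this subtraction.

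Of the 2 unconditioned arrays at 48 h on the larger design, replicate 2 stood apart. Its intensities were spread less, with an upper quartile 25.7 times the lower, while this ratio was 40.0 for replicate 3 at 48 h and 39.6 and 46.3 for the 24 h arrays. Over probes it correlated with replicate 3 at r = 0.90, while replicate 3 correlated with both 24 h arrays at 0.95 and the 24 h arrays with each other at 0.95. Values are therefore also given without replicate 2, a fit in which the lone array at 48 h is assumed to vary like the other groups. Time zero replicates 4 and 5, which enter the spread shared by all groups, had lower ratios still, 22.5 and 22.4. The closing section gives counts without these 3 arrays.

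No probe passed a Benjamini-Hochberg adjusted p of 0.05 in limma (0% of 23694, smallest adjusted p = 0.49). At an unadjusted p under 0.05 there were 387 probes higher at 48 h (1.63%) and 847 lower (3.57%). Quantile normalization, which gives every array the same distribution of intensities, called 19 probes higher (0.0802%) and 16 lower (0.0675%), and cyclic loess normalization called all of these 35 among its 61. Without replicate 2 of the 48 h group 14 probes passed (0.0591%), of which 0 were among the 35. Quantile normalization without that array kept the call of 4 of the 35 probes and lost 31. The 35 probes belonged to 27 genes, 15 higher and 12 lower at 48 h, counted by any probe, and 7 probes had no gene assigned. By the probe of highest level of each gene, 13 of 9953 genes were called higher and 7 lower. Some genes named as called below were therefore called by another of their probes. From here on, "called" means an adjusted p under 0.05 after quantile normalization, and gene counts use 1 probe per gene over 9953 genes unless another probe is named.

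Genes of mitosis stood higher at 48 h in unconditioned medium, and 9 of the 15 genes called higher by any probe belonged to this list. Of 38 measured genes of G2 and mitosis, 37 were above the all-probe median, with a median of 0.99 on the log2 scale, while the median of all genes was -0.04. In 28 of the 38 genes both 48 h arrays were above both 24 h arrays, against 7.62% of all genes. At an unadjusted p under 0.05 there were 14 higher, against 1.54% of all genes, and 0 lower. By any of their probes 9 of these genes were called, namely Kif20a, Dlgap5, Kif22, Pttg1, Cenpf, Hmmr, Cdk1, Prc1 and Top2a. By the probe of highest level 7 of the 38 were called higher, against 13 of all 9953 genes. The list's median was 1.02 with quantile normalization and 1.10 without replicate 2.

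Marker lists of some other cell types differed between the times as well. The mean of 19 endothelial markers, less the mean of all genes on the array, was -0.95 and -0.76 at 48 h, against -1.54 and -1.40 at 24 h, and that of 21 fibroblast markers was 1.04 and 1.15 at 48 h, against 0.64 and 0.72 at 24 h. The smooth muscle and leukocyte lists had members in both directions. Their part in the mitosis result was not tested.

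Regulators of mitotic entry came first in the sequence of division. Ccnb1, cyclin B1, had 1774 and 2816 at 48 h, against 1012 and 1291 at 24 h (1.15 ± 0.40, adjusted p = 0.94). Both 48 h arrays were above both 24 h arrays, and the gene was not called. Cdk1, its kinase, was measured by 2 probes. The probe of highest level had 4605 and 9620 at 48 h, against 3220 and 4985 at 24 h, so that the times overlapped (0.91 ± 0.48). A second Cdk1 probe had 3750 and 5764 at 48 h, against 1962 and 2768 at 24 h, and was called (adjusted p = 0.0094 after quantile normalization). Mki67, the proliferation antigen Ki-67, had 1225 and 1370 at 48 h, against 908 and 778 at 24 h (0.80 ± 0.38), and was not called.

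Next came genes of chromosome segregation. Kif22, a kinesin that binds chromosome arms, had 2904 and 5218 at 48 h, against 1591 and 1920 at 24 h (1.34 ± 0.39). It was called at an adjusted p = 0.0073 after quantile normalization and again in that setting without replicate 2 (adjusted p = 0.0051), as was the second Cdk1 probe (adjusted p = 0.029). The other 7 called genes of the list lost the call there, with adjusted p-values from 0.057 (Hmmr) to 0.26 (Top2a). Pttg1, the securin that holds back separase, had 1318 and 2278 at 48 h, against 778 and 748 at 24 h (1.36 ± 0.40). Hmmr, a spindle-associated hyaluronan receptor, had 1954 and 3067 at 48 h, against 1136 and 1132 at 24 h (1.29 ± 0.36). The 24 h arrays of Hmmr and Pttg1 lay close together and the 48 h arrays both stood above them, with replicate 3 the higher in each.

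Genes of the central spindle, the kinetochore and chromosome structure were also called. Kif20a, a kinesin of the central spindle, had 1172 and 1796 at 48 h, against 612 and 572 at 24 h (1.47 ± 0.38), the largest change among the 38 genes. Prc1, which bundles the microtubules of the spindle midzone, had 5472 and 9220 at 48 h, against 3306 and 4487 at 24 h (1.06). Cenpf, a protein of the outer kinetochore, had 1432 and 2539 at 48 h, against 710 and 1088 at 24 h (1.30). Top2a, the topoisomerase that untangles sister chromosomes, had 4299 and 6103 at 48 h, against 2886 and 3218 at 24 h (0.93). The plot of the 38 genes shows larger values for most genes once replicate 2 is left out.

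**Figure D1:**
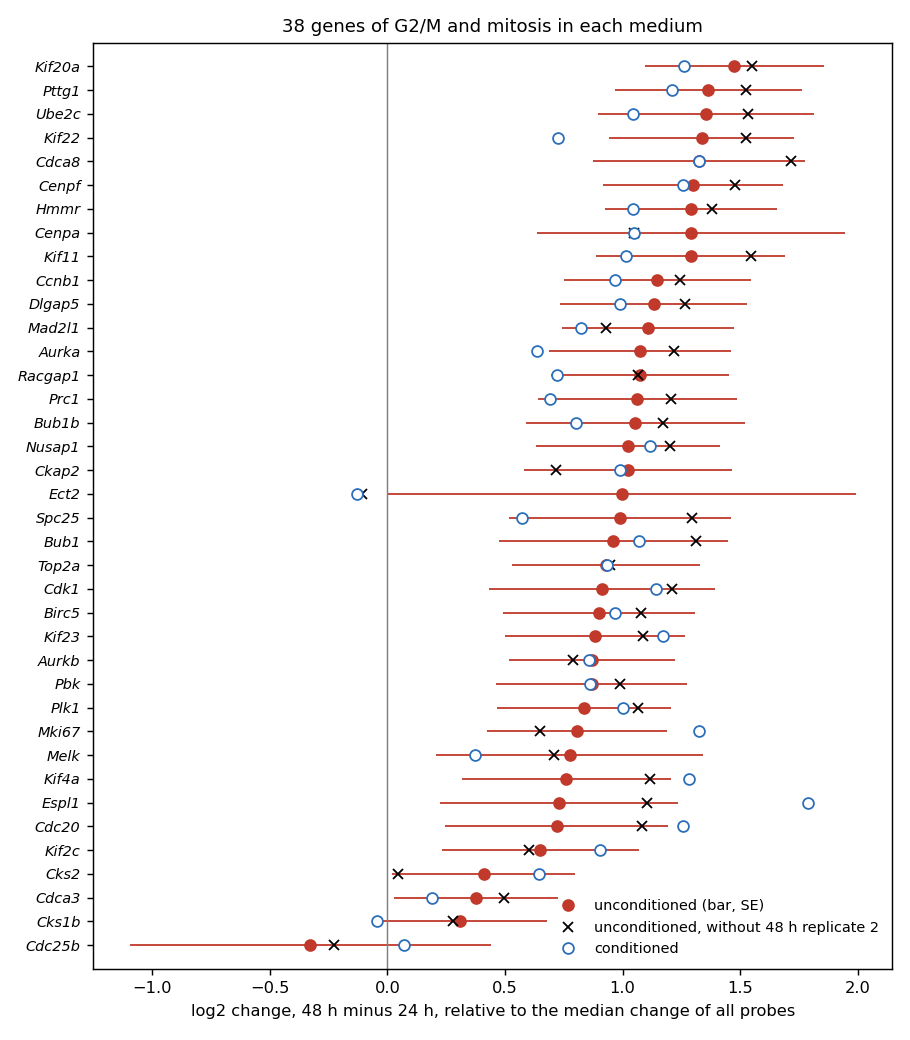
Log2 change at 48 h against 24 h of 38 genes of G2 and mitosis (rows), less the median over all probes. Red points are unconditioned medium with the SE of the fit, black crosses the same without replicate 2 at 48 h, and open blue points conditioned medium. All genes but Cdc25b lie right of 0 in red, and 36 of the 38 blue points do.

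Some called genes outside that list are also known from dividing cells. They were chosen after their values were seen. Cenpw, a centromere protein, had 1552 and 2294 at 48 h, against 739 and 1005 at 24 h. Tacc3, a protein of spindle microtubules, had 1873 and 2763 at 48 h, against 1250 and 1448 at 24 h. The histone gene Hist1h2bq had 1504 and 2344 at 48 h, against 919 and 1310 at 24 h. In these 3 genes both arrays at 48 h lay above both at 24 h, against 7.62% of all genes. As they were called on these same arrays, this order adds no support.

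The promoters of mitotic genes are known for the CHR element, whose core is TTTGAA, and for CCAAT boxes bound by NF-Y. Of the 38 genes, 34 matched RefSeq promoter windows of the GRCr8 build. In the 250 bases upstream of the start that RefSeq's table uses, searched on both strands, TTTGAA was found in 18 of 34 and in 16% of all 27457 promoters. CCAAT was found in 28 of 34, against 34.3% of all, and 18 of 34 held both, against 5.76% of all. These are matches of letters, and no binding was measured. The last 150 bases before the start are shown for the called genes Top2a (chr10:84473094-84473243, minus strand) and Cdk1 (chr20:19265143-19265292, plus strand) and, for contrast, for Cdc20 (chr5:137255800-137255949, minus strand), the activator of the anaphase ligase, which was not called. Capitals mark TTTGAA and CCAAT on either strand. RefSeq lists a further start 41 bases upstream for Cdk1.
Top2a: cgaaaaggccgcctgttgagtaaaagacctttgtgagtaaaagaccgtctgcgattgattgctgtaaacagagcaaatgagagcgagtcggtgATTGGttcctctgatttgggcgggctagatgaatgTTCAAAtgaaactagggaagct
Cdk1: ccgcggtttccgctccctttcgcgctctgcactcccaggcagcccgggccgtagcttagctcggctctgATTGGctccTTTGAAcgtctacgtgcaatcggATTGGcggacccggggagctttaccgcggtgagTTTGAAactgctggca
Cdc20: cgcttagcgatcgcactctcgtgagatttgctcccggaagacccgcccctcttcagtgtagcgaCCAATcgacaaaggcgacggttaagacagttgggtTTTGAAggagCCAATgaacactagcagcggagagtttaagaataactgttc
Cdc20 had 864 and 1987 at 48 h, against 753 and 1081 at 24 h, so the times overlapped although its window holds the same letters as those of Top2a and Cdk1.

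The mitosis list had a like median in conditioned medium, 0.98, with 36 of 38 genes above the all-probe median. The mean of the list, less the mean of all genes on the same array, was 1.01 and 1.27 at 48 h in unconditioned medium, against 0.19 and 0.27 at 24 h. In conditioned medium it was 0.69 and 0.72 at 48 h, against -0.13 and -0.12 at 24 h, and the 4 time zero arrays averaged -0.31. By this measure the unconditioned arrays were above the conditioned arrays of the same time at both times. The subtracted mean of all genes was 8.68 and 9.03 at 48 h in unconditioned medium, against 9.05 and 9.09 in conditioned medium. The part of that subtraction in the order of the media was not tested. The difference between the media in the change over time was tested directly, and none of the 38 genes reached an unadjusted p under 0.05 in either direction. On the smaller design, with 1 array a time, 15 of 16 genes were above the all-probe median, with a median of 1.05.

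**Figure D2:**
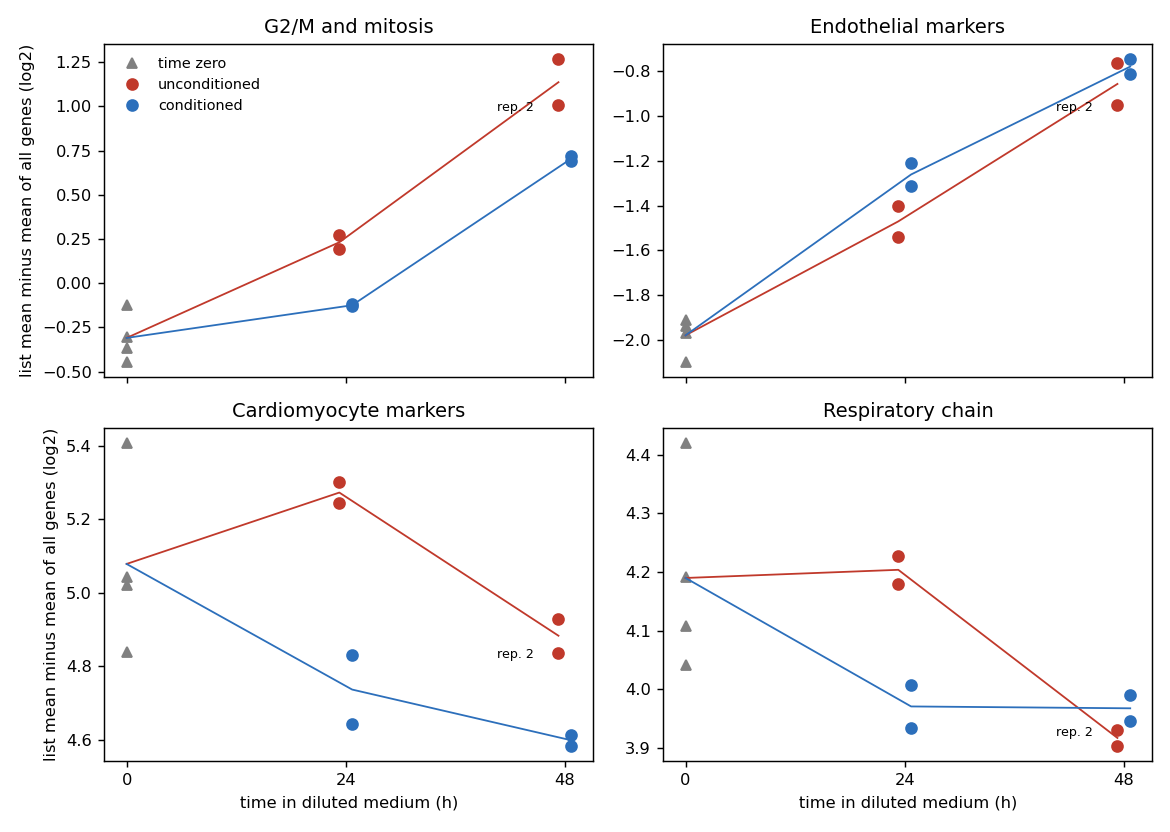
Mean log2 intensity of 4 gene lists minus the mean of all genes on the same array (vertical axis) against hours in diluted medium (0, 24 and 48). Each point is an array (grey, time zero; red, unconditioned; blue, conditioned), lines join group means, and replicate 2 at 48 h is marked. Mitosis genes were higher at 48 h than at 24 h in both media, and cardiomyocyte markers in unconditioned medium were lower. With quantile normalization the median change in unconditioned medium was 1.02 for mitosis genes but -0.06 for cardiomyocyte markers, against 0.99 and -0.31 with median scaling.

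Genes of DNA replication and of the G1 to S transition had smaller differences. Of 27 measured, 20 were above the all-probe median, but their median was 0.13 (0.05 without 48 h replicate 3 and 0.22 without 48 h replicate 2), and none reached an unadjusted p under 0.05. Ccna2, the cyclin of S and G2 phase, had 1495 and 2256 at 48 h, against 881 and 1185 at 24 h (1.03 ± 0.41). Uhrf1, which maintains DNA methylation behind the fork, had 376 and 428 at 48 h, against 270 and 228 at 24 h (0.87 ± 0.38). Ccne1, cyclin E1 of the G1 to S step, had 151 and 219 at 48 h, against 269 and 328 at 24 h (-0.53 ± 0.37), and the helicase subunit Mcm2 had 117 and 133 at 48 h, against 195 and 236 at 24 h (-0.60 ± 0.49). On the smaller design Ccne1 had the opposite sign (0.40). Ccnd1, cyclin D1, overlapped between the times, with 2679 and 4532 at 48 h, against 2868 and 3913 at 24 h (0.24 ± 0.41). None of these 5 genes was called.

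Inhibitors of the cell cycle differed among themselves. Of 10 measured, 2 were above the all-probe median. Cdkn2c, the Cdk4 and Cdk6 inhibitor p18, had 1639 and 3298 at 48 h, against 1049 and 1343 at 24 h (1.15 ± 0.43, adjusted p = 0.055 after quantile normalization). Cdkn1c, the inhibitor p57, had 63.9 and 74.7 at 48 h, against 215 and 145 at 24 h (-1.17 ± 0.39). Gadd45b, a gene of growth arrest and stress, had 213 and 450 at 48 h, against 535 and 695 at 24 h (-0.80 ± 0.42, and -0.50 without replicate 2). The direction of Cdkn2c and of Cdkn1c was the same on the smaller design, with 0.96 and -1.61.

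The gene with the smallest p among those higher at 48 h was Myh3, the embryonic myosin heavy chain. It had 3073 and 4441 at 48 h, against 641 and 915 at 24 h (2.45 ± 0.45, adjusted p = 0.49). The 2 times were far apart relative to the arrays of each time. Myh3 was called after quantile normalization (2.54, adjusted p = 0.022, and 0.11 in that setting without replicate 2) and changed by 2.48 without replicate 2, and the smaller design gave 2.53. In conditioned medium its level was far lower at both times, with 109 and 96.2 at 48 h, against 37.97 and 17.2 at 24 h, and its change there was 2.01. Probe sequences were not analysed here, so a share of signal from other myosin genes was not tested.

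The list of skeletal muscle genes, Myh3 included, had no common direction. Of 13 measured, 8 were above the all-probe median and 5 below, from -1.77 to 2.93, and the list's median of 0.88 was 0.28 without replicate 2. Ckm, the muscle creatine kinase, was lower at 48 h in 2 probes. The called probe had 265 and 380 at 48 h, against 726 and 838 at 24 h (-1.12, adjusted p = 0.0499 after quantile normalization). Mybph, a myosin binding protein, had 17.8 and 25.2 at 48 h, against 104 and 64.3 at 24 h (-1.77 ± 0.78), and was not called.

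Among genes lower at 48 h, the smallest p belonged to Pdia2, a protein disulfide isomerase. It had 79.9 and 105 at 48 h, against 340 and 449 at 24 h (-1.91 ± 0.37, adjusted p = 0.49), and was called after quantile normalization (adjusted p = 0.014, and 0.063 in that setting without replicate 2). In conditioned medium it had 87.9 and 102 at 48 h, against 228 and 234 at 24 h (-1.28). The times did not overlap in either medium.

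Apoe and Nr1h2 are linked in lipid handling, since LXR receptors, of which Nr1h2 encodes the beta form, are known to activate the gene of apolipoprotein E. Apoe had 288 and 419 at 48 h, against 1038 and 1322 at 24 h (-1.57 ± 0.37). A second Apoe probe had 145 and 224 at 48 h, against 615 and 779 at 24 h, and both probes were called (adjusted p = 0.022 and 0.01 after quantile normalization). In that setting without replicate 2 the second probe kept the call (adjusted p = 0.029) and the first lost it (adjusted p = 0.12). Nr1h2 had 343 and 510 at 48 h, against 978 and 1344 at 24 h (-1.28 ± 0.38). This probe was called at an adjusted p = 0.027 after quantile normalization, and a second Nr1h2 probe was not called. Without replicate 2 in that setting the called probe changed by -1.21 and lost the call. On the smaller design the changes were -1.89 for Apoe and -0.74 for Nr1h2. In conditioned medium Apoe had 882 and 878 at 48 h, against 1167 and 1266 at 24 h, and Nr1h2 had 938 and 927 at 48 h, against 1024 and 874 at 24 h. No probe passed the test of the difference between media, so the smaller changes there are given as values only.

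Cited4, a coregulator that binds CBP and p300, was lower by 1 probe, with 62.4 and 113 at 48 h, against 271 and 376 at 24 h, and was called (adjusted p = 0.038 after quantile normalization). Its conditioned arrays had 312 and 301 at 48 h, against 227 and 289 at 24 h. Lims2, an adapter of cell-matrix adhesions, had 213 and 306 at 48 h, against 563 and 754 at 24 h. Trim54, a ubiquitin ligase of the muscle sarcomere, had 984 and 2091 at 48 h, against 3131 and 5017 at 24 h. The lysosomal protease Ctsa had 1158 and 1769 at 48 h, against 2916 and 3496 at 24 h. Bckdk, the kinase that restrains breakdown of branched-chain amino acids, had 1508 and 2712 at 48 h, against 4228 and 4270 at 24 h. Strn4, a striatin of phosphatase complexes, had 476 and 778 at 48 h, against 1340 and 1739 at 24 h. By the called probe of each of these genes both 48 h arrays were below both 24 h arrays. The share was 22.5% among all genes by their probe of highest level. The called probe was not the probe of highest level in every gene, Cited4 being an example. Replicate 2 was the lower at 48 h in each. The genes were named because they were called on these same arrays, so this order adds no support.

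**Figure D3:**
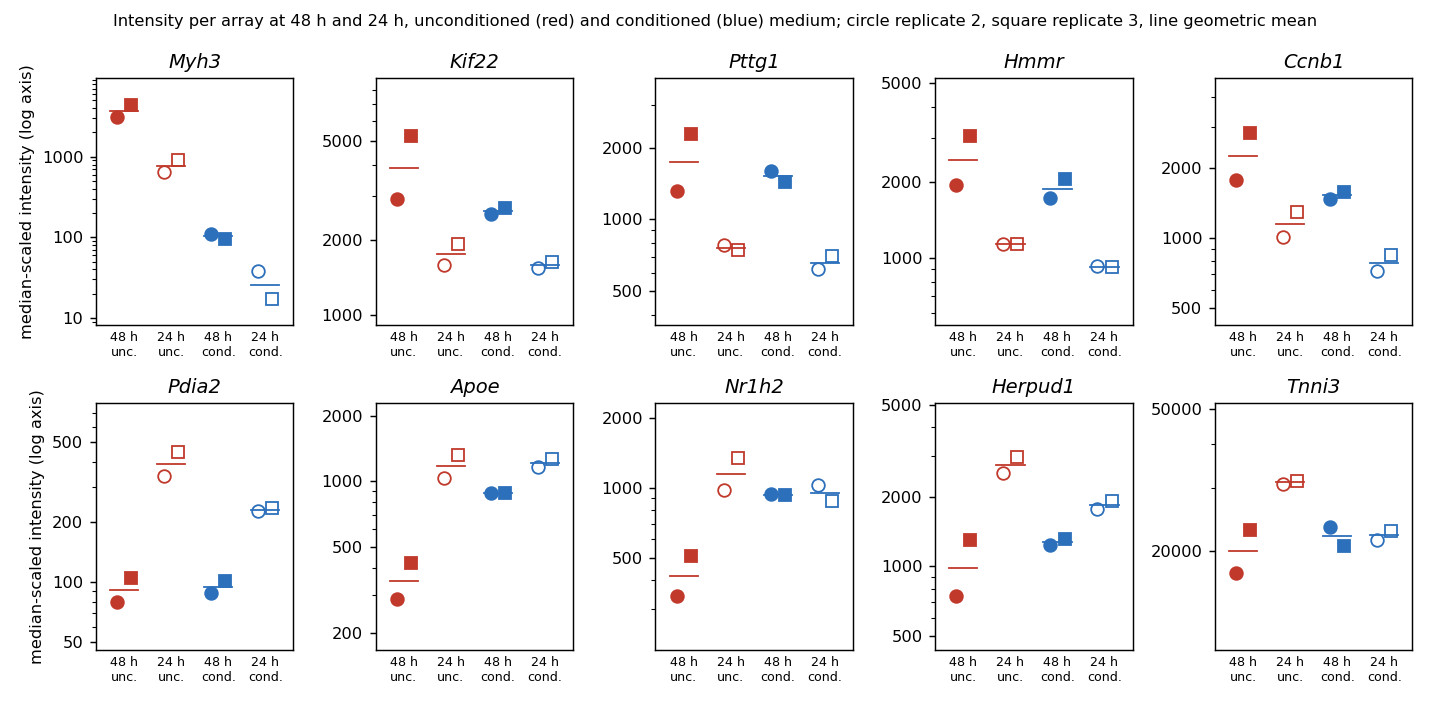
Intensity of 10 genes on each array of the larger design (log axis, median-scaled). Filled symbols are 48 h and open ones 24 h, red is unconditioned and blue conditioned medium, circles are replicate 2 and squares replicate 3, and the line is the geometric mean. Myh3 was at 3073 and 4441 at 48 h in unconditioned medium, above 641 and 915 at 24 h, and Nr1h2 at 343 and 510, below 978 and 1344.

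Herpud1, a membrane protein of the endoplasmic reticulum that takes part in the removal of misfolded proteins, was the called gene of the list of amino acid and ER stress genes. It had 744 and 1296 at 48 h, against 2548 and 2964 at 24 h (-1.30 ± 0.41, adjusted p = 0.0499 after quantile normalization), and -1.17 on the smaller design. Its promoter is known for ERSE-II, an element of the ER stress response. Its letters, searched on both strands with 1 free base and including a CCAAT box on the other strand, stood once in the 150 bases before the start used (chr19:10614708-10614857, minus strand, GRCr8), 124 bases upstream of it, and in 0.0437% of all promoter windows of 250 bases. Capitals mark the element, and RefSeq lists a further start 9461 bases upstream.
Herpud1: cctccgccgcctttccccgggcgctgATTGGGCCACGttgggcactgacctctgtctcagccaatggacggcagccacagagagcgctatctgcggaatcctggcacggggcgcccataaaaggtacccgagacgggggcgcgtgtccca
Other genes of the unfolded protein response showed smaller differences. Hspa5, the chaperone BiP, had 5189 and 5947 at 48 h, against 9559 and 7607 at 24 h (-0.44 ± 0.36). Ddit3, the stress factor CHOP, had 1409 and 2623 at 48 h, against 2801 and 3487 at 24 h (-0.52 ± 0.41, and -0.31 without replicate 2). Sdf2l1, a chaperone cofactor, had 1212 and 2777 at 48 h, against 2879 and 3596 at 24 h (-0.63 ± 0.42, and -0.27 without replicate 2). Of the 27 genes of the list, 6 were above the all-probe median, with a median of -0.24 (-0.16 without replicate 2), and 9 had both 48 h arrays below both 24 h arrays, against 22.5% of all genes. A second gene of the list, Slc3a2, the heavy chain of amino acid transporters, was called by 1 probe, with 183 and 352 at 48 h, against 804 and 669 at 24 h. Its probe of highest level changed by -0.41.

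Markers of cardiomyocytes were lower at 48 h by small amounts. Of 13 measured, 0 were above the all-probe median, and the changes ran from -0.72 to -0.06 with a median of -0.31. In 11 of the 13 both 48 h arrays were below both 24 h arrays, against 22.5% of all genes. At an unadjusted p under 0.05 there was 1 lower, Ttn, against 3.56% of all genes. Ttn, the giant spring of the sarcomere, had 9548 and 20923 at 48 h, against 25876 and 26869 at 24 h (-0.72 ± 0.41). Its change was -0.39 without replicate 2 and -0.32 after quantile normalization. Tnnt2 had 15052 and 21930 at 48 h, against 36743 and 26400 at 24 h (-0.60 ± 0.40), and Tnni3 had 17454 and 22989 at 48 h, against 30925 and 31473 at 24 h (-0.46 ± 0.39). Pln, the phosphoprotein that restrains the calcium pump, had 18658 and 27345 at 48 h, against 33967 and 38639 at 24 h (-0.50 ± 0.41). None was called. On the smaller design 0 of 10 were above the all-probe median, and in conditioned medium the list's median was 0.00.

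Most of these probes were bright. Among the 13 cardiomyocyte markers, 12 were in the brightest 10th of genes, which had a median change of -0.17 in unconditioned medium and of 0.05 after quantile normalization. The median of the markers was -0.06 after quantile normalization and -0.39 without replicate 2. The part of brightness in the result was not tested.

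The sarcomere and calcium handling lists share genes with the markers. Of 26 sarcomere genes 6 were above the all-probe median, with a median of -0.25 that was 0.01 after quantile normalization. Myom2, a protein of the M-band, had 481 and 837 at 48 h, against 1166 and 1648 at 24 h (-0.95 ± 0.41), and the small heat shock protein Cryab had 11668 and 14430 at 48 h, against 27325 and 24227 at 24 h (-0.81 ± 0.38). Among 20 genes of calcium handling 7 lay above, and Casq2, the calcium store protein, had 2015 and 3932 at 48 h, against 5425 and 5618 at 24 h (-0.79 ± 0.45). Atp2a2, the calcium pump SERCA2, had 17110 and 26865 at 48 h, against 38742 and 33928 at 24 h (-0.58 ± 0.38).

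The fetal and stress genes of the heart included members whose sign depended on the normalization. Of 13, 1 were above the all-probe median, with a median of -0.22 that was 0.08 after quantile normalization. Nppa had 26076 and 28763 at 48 h, against 34481 and 36342 at 24 h (-0.19 ± 0.37), and Nppb had 24114 and 32565 at 48 h, against 32954 and 32466 at 24 h (-0.04 ± 0.39). Myh7, the beta myosin heavy chain, overlapped between the times (-0.22 ± 0.42). With quantile normalization the signs of these 3 changed, to 0.15, 0.26 and 0.17. Gdf15, a secreted stress cytokine, had 285 and 411 at 48 h, against 668 and 869 at 24 h (-0.98 ± 0.33), and kept its sign after quantile normalization (-0.95). The alpha myosin Myh6 had no probe assigned to it alone among those tested, so it has no test here.

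Genes of energy metabolism were mostly on the lower side. Of 33 genes of the respiratory chain 1 were above the all-probe median, with a median of -0.38, and 23 had both 48 h arrays below both 24 h arrays, against 22.5% of all genes. Their median was -0.48 without replicate 2, -0.10 after quantile normalization and 0.10 in conditioned medium, and 28 of the 33 were in the brightest 10th of genes. Ndufa1, a subunit of complex I, had 10568 and 13514 at 48 h, against 23416 and 19792 at 24 h (-0.67 ± 0.37). Cyc1, the cytochrome of complex III, had 8546 and 14907 at 48 h, against 19333 and 21829 at 24 h (-0.68 ± 0.40). The 1 gene above was Cox8b, whose fitted change of 4.94 came from a single 24 h spot at the floor of 4.84, against 6121 on the other 24 h array and 4016 and 5425 at 48 h. On the smaller design 1 of 22 lay above, with a median of -0.35.

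Genes of glycolysis and fatty acid oxidation had smaller medians. Of 21 genes of glycolysis 4 were above the all-probe median, with a median of -0.26 that was 0.01 after quantile normalization. Eno1, the enolase of most tissues, was the member with the smallest p, with 1428 and 2554 at 48 h, against 4795 and 4936 at 24 h (-1.17 ± 0.41), and -1.03 after quantile normalization. Of 29 genes of fatty acid oxidation 5 lay above, and Acot2, a mitochondrial thioesterase, had 481 and 889 at 48 h, against 1198 and 1502 at 24 h (-0.86 ± 0.42). Vegfa, among 19 genes induced by low oxygen, had 2262 and 3088 at 48 h, against 5854 and 4328 at 24 h (-0.75 ± 0.38). The smaller design gave -1.07 for Eno1 and -0.18 for Vegfa.

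Ribosomal protein genes had lower values at 48 h, with 2 of 16 above the all-probe median and a median of -0.33 that was -0.07 after quantile normalization, -0.20 without 24 h replicate 2 and -0.53 without 24 h replicate 3. Rplp0, of the ribosomal stalk, had 10409 and 12742 at 48 h, against 28168 and 22813 at 24 h (-0.96 ± 0.38). Of 19 heat shock genes 4 lay above, with a median of -0.29, which was -0.18 without replicate 2 and -0.04 after quantile normalization. Neither list had a called gene. Rps23, a ribosomal protein gene, was at the floor on replicate 2 at 48 h.

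**Figure D4:**
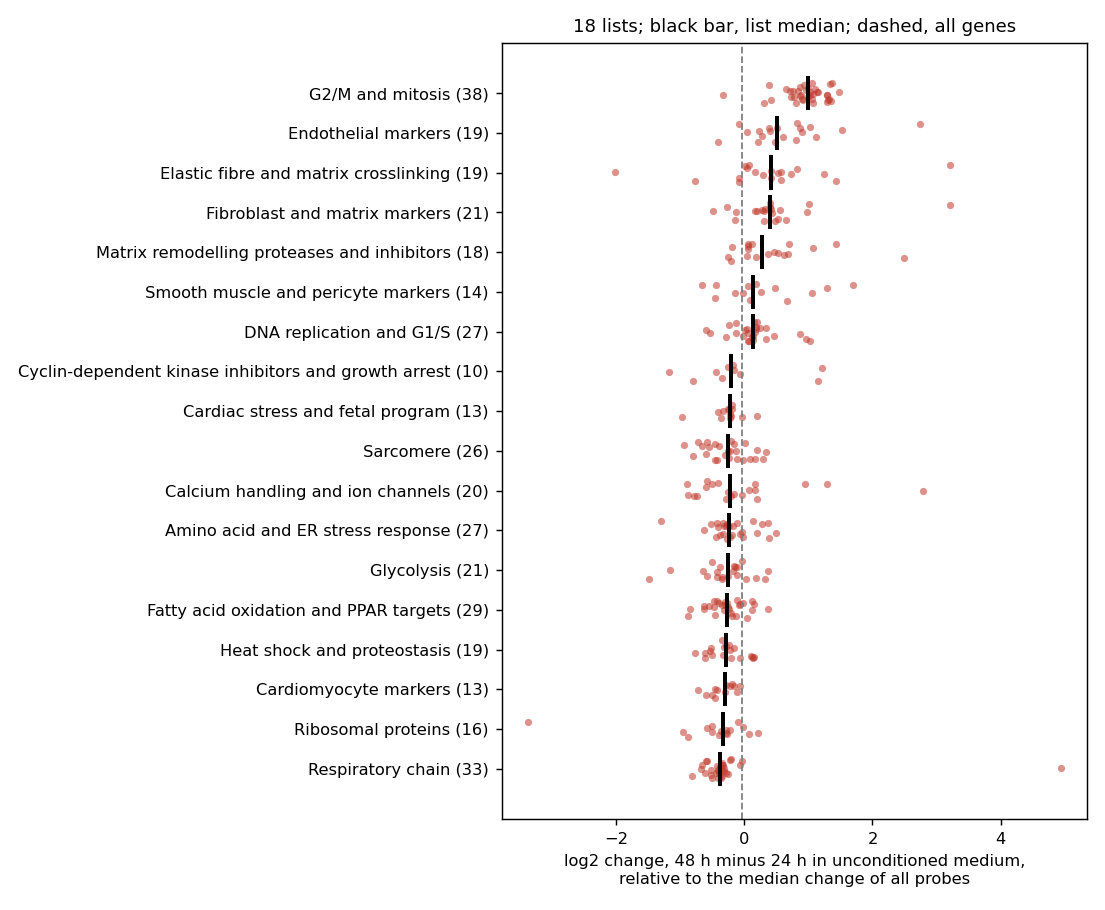
Log2 change at 48 h against 24 h in unconditioned medium, less the median over all probes, for the genes of 18 lists (number measured in brackets). Each point is a gene, the black bar is the list median and the dashed line the median of all genes. The mitosis list has its median at 0.99 and the respiratory chain at -0.38, with Cox8b as the point at 4.94.

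Most endothelial markers had higher values at 48 h. Of 19 endothelial markers 17 were above the all-probe median, with a median of 0.50, and 8 had both 48 h arrays above both 24 h arrays, against 7.62% of all genes. Vwf, von Willebrand factor, had 177 and 290 at 48 h, against 71.1 and 111 at 24 h (1.53 ± 0.48). The angiopoietin receptor Tek had 430 and 723 at 48 h, against 259 and 324 at 24 h (1.12 ± 0.40), and its relative Tie1 had 447 and 744 at 48 h, against 286 and 365 at 24 h (1.02 ± 0.38). Lyve1, a hyaluronan receptor of lymphatic endothelium, had 45.9 and 103 at 48 h, against 4.84 (the floor) and 27.9 at 24 h. None was called. On the smaller design 9 of 10 lay above, and in conditioned medium the list's median was 0.56. Kdr, a receptor for vascular growth factor, was an exception at -0.41.

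Fibroblast and matrix markers showed a median of 0.39, with 17 of 21 above the all-probe median. In 3 both 48 h arrays were above both 24 h arrays, against 7.62% of all genes, and in 2 below, against 22.5%. At an unadjusted p under 0.05 there was 1 higher, against 1.54% of all genes, and 0 lower. Col1a1, a chain of type I collagen, had 4117 and 7144 at 48 h, against 2799 and 3360 at 24 h (1.00 ± 0.39, adjusted p = 0.09 after quantile normalization). Col8a1 had 549 and 1010 at 48 h, against 358 and 512 at 24 h (0.98 ± 0.41). Tnc, the matrix protein tenascin, had the opposite sign, with 300.5 and 538 at 48 h, against 622 and 651 at 24 h (-0.48 ± 0.40). Among 19 genes of elastic fibres and matrix crosslinking 15 lay above, with a median of 0.41, which was 0.12 without 48 h replicate 3 and 0.26 without 24 h replicate 2. Lox, which crosslinks collagen and elastin, had 1240 and 1732 at 48 h, against 876 and 1015 at 24 h (0.82 ± 0.37), and Loxl2 had 334 and 236 at 48 h, against 142 and 127 at 24 h (1.25 ± 0.53, and 0.76 without replicate 2). Eln itself, tropoelastin, overlapped between the times, with 2202 and 4366 at 48 h, against 2238 and 3108 at 24 h (0.41 ± 0.42). Of 18 genes of matrix proteases and inhibitors 15 lay above, with a median of 0.27, which was 0.12 without 48 h replicate 2. In 4 of the 18 both 48 h arrays were above both 24 h arrays, against 7.62% of all genes, and in 2 below, against 22.5%. Ctsk, cathepsin K, had 564 and 417 at 48 h, against 187 and 220 at 24 h (1.44 ± 0.34).

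Smooth muscle genes were split. Of 14, 9 were above the all-probe median. Myh11, the smooth muscle myosin, had 655 and 820 at 48 h, against 430 and 373 at 24 h (1.05 ± 0.35), and the smaller design gave 1.24. Acta2, smooth muscle actin, had 17452 and 22346 at 48 h, against 33816 and 27102 at 24 h (-0.44 ± 0.39), and -0.01 after quantile normalization. Mcam, an adhesion molecule of pericytes, had 267 and 444 at 48 h, against 602 and 633 at 24 h (-0.66 ± 0.38).

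Leukocyte markers had members in both directions. Of the 11 measured, 4 were lower at an unadjusted p under 0.05, against 3.56% of all genes, and 0 were higher, and the 4 are described because of that p. Mpeg1, the pore protein perforin-2, had 56.8 and 70.1 at 48 h, against 186 and 237 at 24 h (-1.55 ± 0.40). Aif1 had 56.7 and 78.7 at 48 h, against 144 and 159 at 24 h (-1.003 ± 0.44), and the adapter Tyrobp had 252 and 447 at 48 h, against 595 and 796 at 24 h (-0.85 ± 0.41). Cd68, a lysosomal protein of macrophages, had 110 and 248.9 at 48 h, against 274 and 401 at 24 h (-0.82 ± 0.42). Of the 11 markers 6 were above the all-probe median, with a median of 0.28, and 4 without replicate 2, with a median of -0.18. The change of Cd68 was -0.47 without that array. Csf1r, a receptor of macrophages, had 1008 on replicate 2 and 308 on replicate 3 at 48 h, against 266 and 288 at 24 h. In conditioned medium 3 of the 11 lay above.

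**Figure D5:**
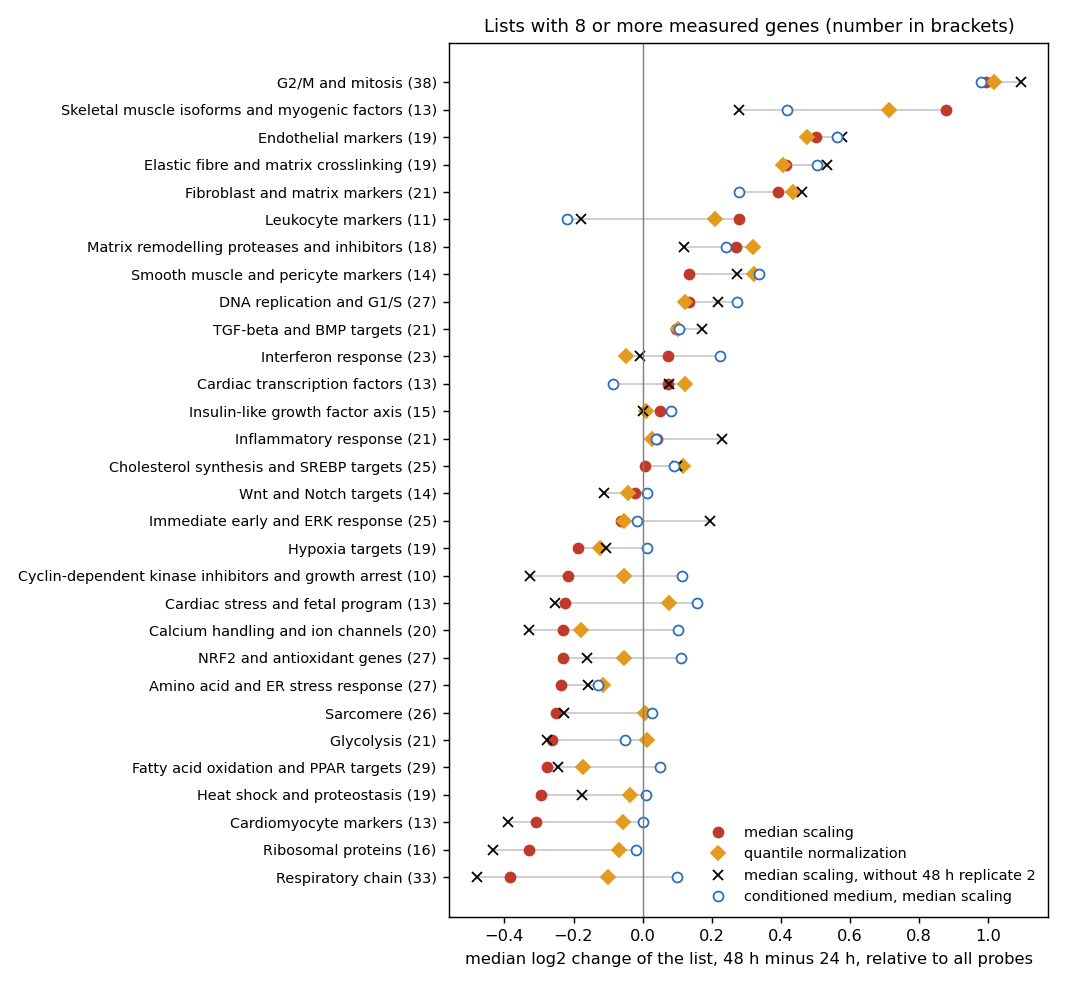
Median log2 change at 48 h against 24 h of each gene list with 8 or more measured genes, relative to all probes. Red circles are unconditioned medium with median scaling, orange diamonds the same with quantile normalization, black crosses without replicate 2 at 48 h, and open blue circles conditioned medium. The mitosis list stays between 0.98 and 1.10 in these settings, while the leukocyte list is 0.28 in red and -0.18 without replicate 2.

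The remaining genes with the smallest p were of varied kinds, and the 10 in each direction had adjusted p-values from 0.49 to 0.94. Ccn5, a secreted matricellular protein, had 118 and 151 at 48 h, against 24.4 and 38.4 at 24 h (2.31 ± 0.55), and the smaller design gave 2.15. Apold1, known from activated endothelium, had 302 and 335 at 48 h, against 110 and 132 at 24 h (1.58 ± 0.37). Parpbp, a regulator of DNA recombination, had 394 and 384 at 48 h, against 136 and 152 at 24 h (1.61 ± 0.38), and 1.51 in conditioned medium. Serpinb1a, a protease inhibitor, had 309 and 662 at 48 h, against 122 and 218 at 24 h (1.65 ± 0.42). Conditioned arrays of Serpinb1a had 1686 and 1700 at 48 h, against 304 and 356 at 24 h (2.37). The kinase Dclk1 had 785 and 899 at 48 h, against 322 and 391 at 24 h (1.42 ± 0.35). It was called by 1 of its 4 tested probes (adjusted p = 0.0499 after quantile normalization), which changed by 1.24 in that setting without replicate 2. For Samd9l and Drd5 1 of the 24 h arrays was at the floor, so the sizes fitted for them are not given.

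On the lower side Scgb1c1, a secretoglobin, had 4.84 (the floor) and 22.5 at 48 h, against 111 and 108 at 24 h. Dhrs7c, a dehydrogenase of the sarcoplasmic reticulum, had 98.5 and 158 at 48 h, against 647 and 693 at 24 h (-2.24 ± 0.56), and -1.99 on the smaller design. Conditioned arrays of Dhrs7c had 14.3 and 4.84 (the floor) at 48 h, against 95.2 and 58.7 at 24 h (-3.16). Coq8a, an atypical kinase of coenzyme Q synthesis, had 308 and 392.4 at 48 h, against 880 and 948 at 24 h (-1.21 ± 0.38). Its conditioned arrays had 483 and 490 at 48 h, against 350 and 382 at 24 h. Rnf187, a ubiquitin ligase, had 260 and 331 at 48 h, against 922 and 596 at 24 h, and Edf1, a transcriptional coactivator, had 256 and 235 at 48 h, against 745 and 447 at 24 h. Of the 20 genes of smallest p, 9 were measured on the smaller design, and 9 of 9 had the same sign there, as had 68.7% of all 4613 shared genes. Of the 27 called genes 16 were measured there, and 15 of 16 had the same sign.

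In the remaining lists the members with small p were few. Aldh3a1, an aldehyde dehydrogenase among 27 antioxidant genes, of which 10 were above the all-probe median, had 1696 and 3089 at 48 h, against 862 and 1139 at 24 h (1.39 ± 0.39), and 1.86 on the smaller design. Igfbp3, a carrier of insulin-like growth factors in a list with 9 of 15 above, had 170 and 290 at 48 h, against 79.2 and 96.9 at 24 h (1.52 ± 0.43), and 1.59 on the smaller design. Bmp2, a growth factor in the list of TGF-beta and BMP targets, with 15 of 21 above, had 1126 and 1877 at 48 h, against 3056 and 3071 at 24 h (-0.90 ± 0.48). Reg3b, a secreted lectin, had 31.4 and 70.8 at 48 h, against 130 and 98.9 at 24 h (-1.09 ± 0.47). In conditioned medium Reg3b was at 4782 and 4434 at 48 h, against 2377 and 2915 at 24 h. Above the all-probe median were 13 of 25 genes of cholesterol synthesis, 13 of 23 of the interferon response, 12 of 21 of inflammation, 9 of 25 of the immediate early response (14 without replicate 2), 6 of 14 of Wnt and Notch signalling and 7 of 13 cardiac transcription factors. For the sparse marker lists the counts were 2 of 4 erythroid, 3 of 3 Schwann and neural and 4 of 7 epicardial.

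The change in unconditioned medium was set directly against that in conditioned medium. No probe passed the test of the difference (0% of 23694, smallest adjusted p = 0.67), and 518 had an unadjusted p under 0.05, and 0 probes passed after quantile normalization, where 855 had an unadjusted p under 0.05. In conditioned medium itself 1 probe passed (0.00422%). Genes with the smallest p for a more positive change in unconditioned medium had their highest value on replicate 2 at 48 h. Calb2 had 292 on that array and 31.4 on replicate 3, against 19.4 and 4.84 at 24 h, Fmo2 had 202 and 15.3, against 4.84 on both arrays at 24 h, and Yap1 had 345 and 43.4, against 54.0 and 4.84 at 24 h. Or1f32 and Tmigd1 had the same pattern, with 248 and 27.8 for Or1f32 and 279 and 93.3 for Tmigd1 at 48 h, against 19.3 and 4.84, and 43.4 and 23.6, at 24 h. Each of these genes was also higher on time zero replicates 4 and 5, whose intensities were likewise spread less, than on time zero replicates 3 and 6. For Calb2 these values were 128 and 78.4, against 26.4 and 16.4. The part of the spread of the arrays in this pattern was not tested. In the other direction were Edf1, Fn3k, Klf15, Selenbp1 and Nacad. Fn3k, a kinase that repairs glycated proteins, had 101 and 159 at 48 h, against 267 and 299 at 24 h, while its conditioned arrays had 108 and 118 at 48 h, against 39.3 and 57.5 at 24 h. Klf15, a metabolic transcription factor of muscle, had 46.2 and 72.9 at 48 h, against 119 and 110 at 24 h, with 45.3 and 53.0 at 48 h, against 5.58 and 24.5 at 24 h, in conditioned medium. Without replicate 2 the test of the difference called 12 probes.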

How the data were processed

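The arrays were CodeLink arrays with 1 colour (biotin), per the labels. The deposited values are linear intensity for 33849 probes on the larger design (12 arrays) and 9906 on the smaller (6 arrays). Scanner, software and normalization are not given in the sources used here. The values looked background-subtracted and their medians differed between arrays (70.3 to 116.5 over the 4 unconditioned arrays of the larger design). Intensities were multiplied so that every array had its table's median, raised to a floor of 0.05 of that median (4.84) and log2-transformed. Probes whose mean did not exceed the 30th percentile were dropped. On the larger design 23694 probes of 9953 genes remained, and limma 3.58.1 (R 4.3.3) fitted the 12 arrays in 1 model, with eBayes moderation that follows intensity and Benjamini-Hochberg adjustment over all probes. The number of arrays limits the precision. The scripts were tested on simulated data.

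Probes were named from GEO's platform annotation where it gave 1 gene (16753 probes, 165 with several and 16931 with none), with 16724 symbols updated through gene IDs. A gene is represented by its probe of highest mean. The rule named genes with the largest changes among those called, filled by the smallest p to 10 in each direction, up to 4 members of a list by smallest p, 15 genes in advance and 5 in each direction for the difference between media. Genes named as called, and Actn2, Cdc20, Cdc25b, Csf1r and Kdr, fall outside the rule and were chosen after their values were seen. Members, lists and rule were chosen with earlier results of these data known. Replicates are numbered in the order of deposition. Alternatives are given in the closing section. Promoter sequences are RefSeq's (GRCr8). Python 3.11.15 and matplotlib 3.10.9 drew the figures.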

Additional observations from a re-analysis of the deposited data

Results flagged for a closer look

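Among the 97 genes examined, the 4 time zero arrays held 1 value that stood off from the others of its group by a wide gap. Drd5, a dopamine receptor, had 36.5 on time zero replicate 3, against 97.7 to 112 on the other 3 arrays. Chance alone gives such a gap in about 1 of 20 groups.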

How the results depend on the processing

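The count of probes called at 48 h against 24 h in unconditioned medium, 0 as reported, was 35 with quantile normalization, 61 with cyclic loess, 4 with scaling to the 75th percentile, 127 with only the groups compared, 3 with both tables fitted together, 66 without the 3 arrays that stood apart (unconditioned 48 h replicate 2 and time zero replicates 4 and 5), and 10 to 28 with 1 unconditioned array left out. Quantile normalization without replicate 2, chosen after seeing the data, called 19. It stayed 0 with no filter, a filter at the 50th percentile, a floor of 0.2, a pseudocount of 0.5, no intensity trend, array weights and probes of a gene averaged. For the difference between the media (0 as reported) the count was 4 to 15 with 1 unconditioned array left out and 17 without the 3 arrays, and 0 in the other settings. For conditioned medium (1 as reported) it was 7 with quantile normalization, 61 with cyclic loess, 12 with the 75th percentile, 0 with no filter, 4 with a filter at the 50th percentile, 0 with a floor of 0.2, 3 with no trend, 1471 with array weights, 1425 with only the groups compared, 0 with probes averaged, 6 with both tables, 82 without the 3 arrays and 1 to 3 with 1 unconditioned array left out. The median of the mitosis list (0.99) was 0.87 with the pseudocount. That of the respiratory chain (-0.38) was -0.10 with quantile normalization, -0.23 with cyclic loess and -0.27 with quantile normalization without replicate 2, and that of cardiomyocyte markers (-0.31) was -0.0565 with quantile normalization. That of endothelial markers (0.50) was 0.40 with the pseudocount, 0.70 with probes averaged, 0.66 with both tables and 0.55 to 0.62 with 1 array left out. Of the 97 genes examined, those whose sign changed were Myh7 (0.17 with quantile normalization, 0.25 when replicate 2 was also left out), Nppa (0.15 with quantile normalization), Nppb (0.26 with quantile normalization, 0.14 with cyclic loess, -0.11 to 0.0457 with 1 array left out, turning sign without 24 h replicate 2, 0.21 with quantile normalization without replicate 2) and Cox8b (-0.13 to 10.03 with 1 array left out, below 0 without 24 h replicate 2). Quantile normalization brought 10 of the 97 past the threshold, cyclic loess 16 and leaving out the 3 arrays 13. The cause of these shifts was not tested. No paired analysis was possible because the labels carry no replicate numbers. Dim probes near the floor of 4.84 give sizes that depend on it.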
